A study of Mus musculus with 12 samples.

Results

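Interferon-stimulated genes are the genes that a cell switches on when interferon reaches it. A list of 40 of them was followed here in mouse follicular B cells, and the 40 were chosen by gene symbol among 24046 genes with deposited counts. Of the 40, 39 passed the filter on low counts and were tested among 12242 genes. Ifi44, an antiviral gene with 1 to 9 counts per library, did not pass it and is described by its counts alone.

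Follicular B cells, which circulate through the B cell follicles of spleen and lymph nodes, were sorted from mouse spleen and their poly(A) RNA was sequenced in 12 libraries. The 4 groups held 3 libraries each: Jmjd1c KO cells after 2 h of anti-IgM, Jmjd1c KO cells at 0 h, Jmjd1c WT cells after 2 h of anti-IgM, and Jmjd1c WT cells at 0 h. Anti-IgM binds the IgM on the cell surface and so triggers the B cell receptor, and Jmjd1c encodes a JmjC-domain protein of the histone demethylase family, which the series title ties to autoimmunity and to antibody production. The library names carry 6 ID numbers, each on a 2 h and a 0 h library of 1 genotype, which were read here as 6 animals, and 3 batch numbers were shared between genotypes and times. The sources used here give no strain, no age, no deleted part of Jmjd1c and no driver of the deletion. No library kept for 2 h without anti-IgM was analysed here, so time in culture and anti-IgM cannot be told apart.

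Type I interferons bind the receptor made of IFNAR1 and IFNAR2, whose kinases JAK1 and TYK2 phosphorylate STAT2 and other STAT proteins. STAT2 and IRF9 are parts of the factor ISGF3, which then binds the interferon-stimulated response element (ISRE) near target genes, while interferon gamma works mainly through gamma-activated sites (GAS). The targets include sensors of viral RNA, the interferon factors themselves, enzymes and binding proteins that block viral growth, and large GTPases that act on vacuoles holding microbes, and many of them keep a low basal level in cells that have met no virus.

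The ISRE letters were present in the promoter windows of many of the 40 genes. The RefSeq table of build GRCm38.p6 held windows, from 250 bases before to 50 bases after the start, for 30 of the 40. The 10 others were Dhx58, Oas2, Mx1, Mx2, Usp18, Zbp1, Iigp1, Parp9, Parp14 and Rtp4. Of the 30 genes, 18 (60%) had the ISRE letters on either strand, that is GAAA, then 2 free bases, then GAAA, against 3.99% of 27025 genes in the table. A stricter form with C after the last GAAA, found within the same matches, was in 14 of the 30 (46.7%), against 0.944% of all genes. The GAS letters TTCNNNGAA were in 10 of the 30 (33.3%), against 9.55% of all, and the composite element of ETS and IRF factors, GGAA with 2 free bases and GAAA after it, was in 5 (16.7%), against 3.16%. In Stat2, Igtp and Irgm2 the ISRE and the ETS-IRF matches overlapped. These matches are descriptions of the letters and not sites of binding.

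The 30-base stretches below come only from genes with the ISRE letters. They are some of the genes that fell after anti-IgM, some that were highest in single libraries, and a pair of neighbours. Of the genes that fell, Irf7 and Samhd1 had windows without the ISRE letters, and Dhx58 and Parp9 had no window. Ifit2 and Xaf1, high in WT 0 h replicate 3, also had windows without these letters. Capitals mark the ISRE letters on the strand of the gene, so that TTTC, 2 free bases and TTTC is the same match read on the other strand.
Ddx58, chr4:40239804-40239833, minus strand: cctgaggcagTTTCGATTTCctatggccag
Stat2, chr10:128270266-128270295, plus strand: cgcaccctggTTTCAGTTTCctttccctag
Gbp3, chr3:142559992-142560021, plus strand: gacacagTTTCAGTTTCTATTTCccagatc
Ifit1, chr19:34640785-34640814, plus strand: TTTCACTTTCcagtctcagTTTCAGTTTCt
Ifit3, chr19:34583363-34583392, plus strand: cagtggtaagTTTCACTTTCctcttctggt
Rsad2, chr12:26456553-26456582, minus strand: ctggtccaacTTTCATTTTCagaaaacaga
Isg15, chr4:156200871-156200900, minus strand: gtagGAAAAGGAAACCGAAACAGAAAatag
Oas1a, chr5:120907523-120907552, minus strand: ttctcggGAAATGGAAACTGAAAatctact
Gbp2, chr3:142620594-142620623, plus strand: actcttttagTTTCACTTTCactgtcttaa
Gbp7, chr3:142530273-142530302, plus strand: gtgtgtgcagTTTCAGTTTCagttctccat
Igtp, chr11:58199512-58199541, plus strand: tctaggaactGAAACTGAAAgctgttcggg
Irgm2, chr11:58214903-58214932, plus strand: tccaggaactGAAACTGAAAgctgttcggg

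Isg15 held 3 overlapping matches within its stretch, and Oas1a, Ifit1 and Gbp3 held 2 each. Ifit3 had a further match in its window, at -122 to -113 from the start, outside the stretch shown. Igtp and Irgm2, neighbours on chromosome 11, carried the same capitals within nearly the same letters. The match of Ddx58 began at the third base of its RefSeq transcript, and that of Stat2 lay far upstream, at the outer end of the window. The 250 bases before the start are given for Stat2 and Gbp3, because both genes fell in both genotypes. Their matches also lie toward opposite ends of these 250 bases.
Stat2, chr10:128270248-128270497, plus strand: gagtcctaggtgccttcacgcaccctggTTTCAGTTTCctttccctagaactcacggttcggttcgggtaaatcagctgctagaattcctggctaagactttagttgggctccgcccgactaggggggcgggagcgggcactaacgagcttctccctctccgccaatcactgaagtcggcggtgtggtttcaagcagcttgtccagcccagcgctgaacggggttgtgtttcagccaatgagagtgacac
Gbp3, chr3:142559794-142560043, plus strand: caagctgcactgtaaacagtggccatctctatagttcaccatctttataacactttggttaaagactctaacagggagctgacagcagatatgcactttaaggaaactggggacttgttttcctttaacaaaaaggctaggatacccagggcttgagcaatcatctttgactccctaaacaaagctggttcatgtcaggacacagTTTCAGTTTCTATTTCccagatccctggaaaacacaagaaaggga

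The libraries held between 5666013 and 14153396 counts. Levels are given in CPM, counts divided by the TMM-scaled size of the library, and a count of 0 allows up to 3 counts, which is 0.183 to 1.02 CPM depending on the library and most in KO 2 h replicate 1. Such a floor covers nothing but counting error. Jmjd1c was at 197 to 236 CPM in the KO libraries and at 270 to 360 CPM in the WT libraries, so its RNA was lower in every KO library but was not lost. The difference was -0.52 ± 0.13 at 2 h and -0.56 ± 0.13 at 0 h (log2 ± SE), which edgeR did not call (adjusted p = 0.887 at 2 h and 0.9999 at 0 h). DESeq2 with the batch as a block called it lower in KO at both times (-0.50, adjusted p = 6.3e-08, at 2 h and -0.55, adjusted p = 1.4e-09, at 0 h), while edgeR with that block (adjusted p = 0.678 at 2 h) and DESeq2 without it (adjusted p = 0.174 at 2 h and 0.146 at 0 h) did not. The B cell receptor gene Cd79a, a defining B cell marker, was at 264.9 to 391.9 CPM in KO 2 h, 489 to 652 CPM in KO 0 h, 247 to 382 CPM in WT 2 h and 446 to 646 CPM in WT 0 h libraries. Not every B cell marker was lower at 2 h: Ms4a1 was at 274.5 to 792 CPM at 2 h and 379 to 584 CPM at 0 h, and the complement receptor gene Cr2 at 115 to 312 CPM at 2 h and 112 to 148 CPM at 0 h. Siglech, a defining marker of plasmacytoid dendritic cells, the professional interferon producers, was at 0 to 1.40 CPM, and Klk1 of the same marker list at 0 to 0.0785 CPM. The others on that list were higher. Tcf4 was at 165 to 253 CPM, Bst2 at 12.6 to 27.1 CPM and Ccr9 at 1.97 to 9.29 CPM. Runx2 was at 1.49 to 39.6 CPM, with the most in KO 2 h replicate 1. The natural killer markers summed to 7.86 to 15.7 CPM.

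A pair of libraries stood apart. KO 2 h replicate 1 had 52.3% of its counts on the ribosomal RNA precursor gene Rn45s (0.418% to 24.8% in the others), and Mki67, a marker of dividing cells, at 530 CPM (8.81 to 138 CPM in the others). Its 4 neutrophil markers summed to 505 CPM, most of it Mpo, so that the range was 26.4 to 505 CPM in KO 2 h, 38.3 to 59.8 CPM in KO 0 h, 17.9 to 132 CPM in WT 2 h and 14.2 to 93.5 CPM in WT 0 h libraries. WT 0 h replicate 3 had 0.560% on Rn45s and stood apart by the interferon-stimulated genes themselves, as described further on. Several of the results that rest on either library are given with and without it, and others only with it.

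At rest, meaning over the 6 libraries at 0 h, the genes covered a wide range of levels. Per kilobase of exon, the dNTP hydrolase Samhd1 was the highest, at a mean of 56.6 CPM per kb (46.7 to 64.4), followed by the TRIM protein gene Trim30a at 32.8, Ifi35 at 23.1, Stat2 at 19.1, Irf9 at 17.8 and the virus tether Bst2 at 15.9. Parp14, a mono-ADP-ribosyltransferase, and Gbp3 were both at 15.1 CPM per kb. The ranges of Stat2 (15.9 to 25.7) and Irf9 (15.0 to 23.4) overlapped, as did those of Trim30a (20.9 to 56.5) and Ifi35 (19.7 to 27.3). The lowest of the 39 tested genes were the vacuole GTPase Iigp1 at 0.256 CPM per kb, Mx2 at 0.631, the RNA sensor Ifih1 at 0.642 and Oas3 at 0.713.

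The median of the 39 was 4.42 CPM per kb, against 6.79 for 11683 tested genes with an exon length, and 15 of the 39 were above the median of those genes. Of the 40, 17 had a resting mean of at most 10 CPM and 9 had at least 50 CPM. Several antiviral effectors were measured from few counts. Ifit3 had as few as 2 counts in a library and Mx2 as few as 6, while Oasl1 had 37 to 526 and Samhd1 had 656 to 9649.

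**Figure D1:**
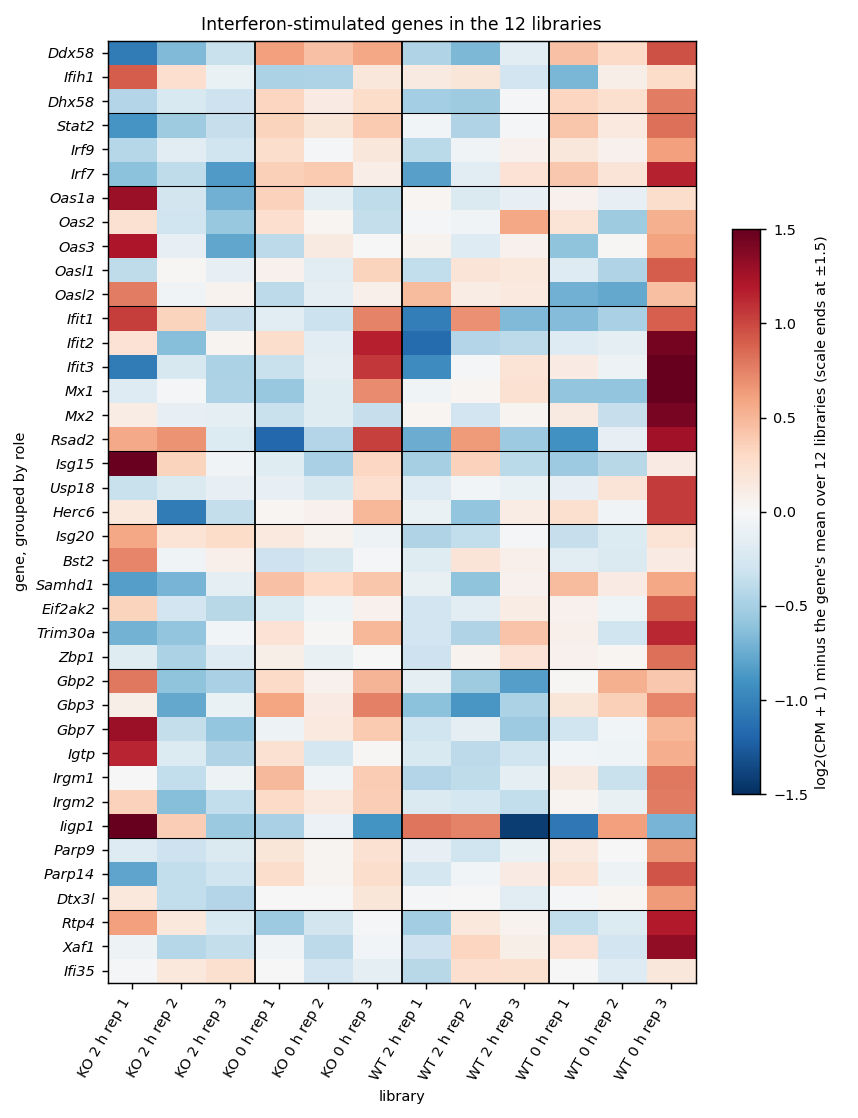
Level of the 39 tested genes (rows, by role) in the 12 libraries (columns), as log2(CPM + 1) minus the mean of that gene over the 12 libraries, with the colour scale ended at 1.5 in both directions. The last column, WT 0 h replicate 3, was the highest of the 6 libraries at 0 h for 34 of 39 genes, and the first, KO 2 h replicate 1, was the highest of the 6 at 2 h for 21 of 39 (53.8%), against 33.5% of all tested genes.

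After 2 h of anti-IgM none of the 39 genes rose past the test in either genotype, and a few fell. In KO cells 6 fell: the RNA sensors Ddx58 and Dhx58, the factors Stat2 and Irf7, Samhd1 and the GTPase Gbp3. In WT cells 5 fell: Ddx58, Dhx58, Stat2, Gbp3 and Parp9, and so 4 genes were shared by both lists. Genes were called at an adjusted p under 0.05 in edgeR's quasi-likelihood test with Benjamini-Hochberg adjustment over all 12242 genes. The 6 of 39 stood beside 13% of all tested genes called lower in KO, and the 5 of 39 beside 9.06% in WT, so these shares were near those of all genes. With the batch as a block, 9 of 39 were called lower in KO (16.2% of all) and 9 in WT (12.1% of all), with the animal as a block 8 in KO (13.7% of all) and 7 in WT (9.41% of all), and in DESeq2 8 in KO (15.9% of all) and 8 in WT (11.7% of all). The genes that the batch block added were Parp9, Trim30a and Parp14 in KO, and Samhd1, Irf7, Ifit2 and Irgm1 in WT. The calls in the other direction, 0 of 39, stood beside 14.1% called higher in KO and 10.7% called higher in WT. In a bulk sample, fewer cells of a type and less RNA per cell cannot be told apart.

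The median difference of the 39 was -0.25 on the log2 scale in KO, against 0.04 for all tested genes, and 24 of 39 were negative, against 47.2% of all. In WT the median was -0.50, against 0.01, and 32 of 39 were negative, against 49.2% of all. The WT median rested on 1 library: without WT 0 h replicate 3 it was -0.10 with 22 of 39 negative. The KO median moved in both directions with 1 library left out. Without KO 2 h replicate 1 it was -0.44 with 29 of 39 negative, and without KO 0 h replicate 3 it was -0.11 with 22 of 39 negative.

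Groups did not overlap for 13 genes in KO, 11 with every 2 h library below every 0 h library (19.6% of all tested genes) and 2 above, Mx2 and Isg20 (17.9% of all). In WT, 11 were below without overlap (22.7% of all) and 0 above (21.3% of all). Taken animal by animal, 11 of the 39 were lower at 2 h in all 6 animals (22.9% of all tested genes were) and 0 were higher in all 6 (18.8% of all were). Within KO, 16 of 39 were lower in all 3 animals (28.3% of all) and 4 higher (25.9% of all), and within WT 19 were lower (31.6% of all) and 0 higher (29.3% of all). The 11 lower in all 6 were Ddx58, Dhx58, Stat2, Irf9, Irf7, Ifit2, Samhd1, Trim30a, Gbp3, Irgm1 and Parp9.

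Ddx58 encodes RIG-I, the helicase that senses viral RNA with a 5′ triphosphate, and lies at chr4:40203773-40239828 (minus strand, GRCm38). It had 28.8, 37.9 and 48.1 CPM in KO 2 h libraries, against 94.1, 82.7 and 91.6 CPM in KO 0 h libraries. It had 44.3, 37.9 and 54.6 CPM in WT 2 h libraries, against 83.1, 74.2 and 119 CPM in WT 0 h libraries. All 6 libraries at 2 h were below all 6 at 0 h. Ddx58 fell by 1.20 ± 0.22 in KO (log2 difference ± SE, adjusted p = 0.00212, edgeR) and by 1.01 ± 0.21 in WT (adjusted p = 0.00654, edgeR), and both calls held in all 23 alternative settings.

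Dhx58 encodes LGP2, a RIG-I-like helicase without the signalling domain that modulates the other sensors. It had 10.8, 12.7 and 11.9 CPM in KO 2 h libraries, against 19.1, 16.4 and 18.3 CPM in KO 0 h libraries. It had 10.3, 10.0 and 14.7 CPM in WT 2 h libraries, against 19.0, 18.0 and 26.4 CPM in WT 0 h libraries. Again the 2 h and 0 h libraries did not overlap. The difference was -0.60 ± 0.20 in KO (adjusted p = 0.0434, edgeR), which was called in 12 of 23 alternatives, and -0.85 ± 0.20 in WT (adjusted p = 0.0104, edgeR), which was called in 21 of 23. Exons of Dhx58 and its antisense transcript share 141 bases, and since the strand setting of the counting is not given, their reads cannot be told apart.

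Ifih1, the gene of MDA5, the sensor of long double-stranded RNA, did not move with the other sensors. It was at 5.39 to 11.8 CPM in KO 2 h libraries, against 3.94 to 6.74 CPM in KO 0 h libraries, and at 4.63 to 6.80 CPM in WT 2 h libraries, against 3.26 to 7.26 CPM in WT 0 h libraries. The ranges overlapped in both genotypes, with differences of 0.70 ± 0.39 in KO (adjusted p = 0.200, edgeR) and 0.09 ± 0.38 in WT (adjusted p = 0.905, edgeR).

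Stat2, the STAT of the type I pathway, lies at chr10:128270559-128292849 (plus strand, GRCm38). It had 45.7, 58.6 and 67.1 CPM in KO 2 h libraries, against 108, 96.9 and 113 CPM in KO 0 h libraries. In WT cells it had 83.4, 62.2 and 84.1 CPM at 2 h, against 115, 94.5 and 153 CPM at 0 h. Groups did not overlap in either genotype. Stat2 fell by 0.88 ± 0.19 in KO (adjusted p = 0.00683, edgeR), a call that held in all 23 alternatives. It fell by 0.66 ± 0.19 in WT (adjusted p = 0.0330, edgeR), where the call held in 16 of 23 and was lost without WT 0 h replicate 3 (-0.45, adjusted p = 0.152, edgeR).

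Irf9, the DNA-binding partner of STAT2, had 60.6, 73.0 and 66.1 CPM in KO 2 h libraries, against 98.1, 80.7 and 91.6 CPM in KO 0 h libraries. It had 61.7, 78.7 and 85.5 CPM in WT 2 h libraries, against 92.3, 85.5 and 126 CPM in WT 0 h libraries. The KO groups were apart and the WT groups nearly met, and neither difference was called: -0.44 ± 0.17 in KO (adjusted p = 0.0760, edgeR) and -0.43 ± 0.17 in WT (adjusted p = 0.0965, edgeR). In KO 3 of 23 alternatives called it (DESeq2 with and without the batch block, and edgeR without WT 0 h replicate 3), with a lowest adjusted p of 0.0315, and in WT 1 of 23 did, DESeq2 with the block (adjusted p = 0.0431).

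Irf7, the factor that amplifies interferon production, had 13.9, 16.4 and 11.6 CPM in KO 2 h libraries, against 28.03, 29.0 and 23.3 CPM in KO 0 h libraries, with no overlap. In WT cells it had 11.99, 19.4 and 25.4 CPM at 2 h, against 29.0, 25.1 and 49.6 CPM at 0 h, and these ranges overlapped. Irf7 fell by 0.94 ± 0.30 in KO (adjusted p = 0.0369, edgeR; 17 of 23 alternatives). In WT the difference was -0.86 ± 0.29 and was not called (adjusted p = 0.0586, edgeR). The call was made there in 7 of 23 alternatives, the batch block among them (-0.87, adjusted p = 0.0482, edgeR). Over the 23 alternatives the WT difference of Irf7 ran from -1.15 to -0.50.

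**Figure D2:**
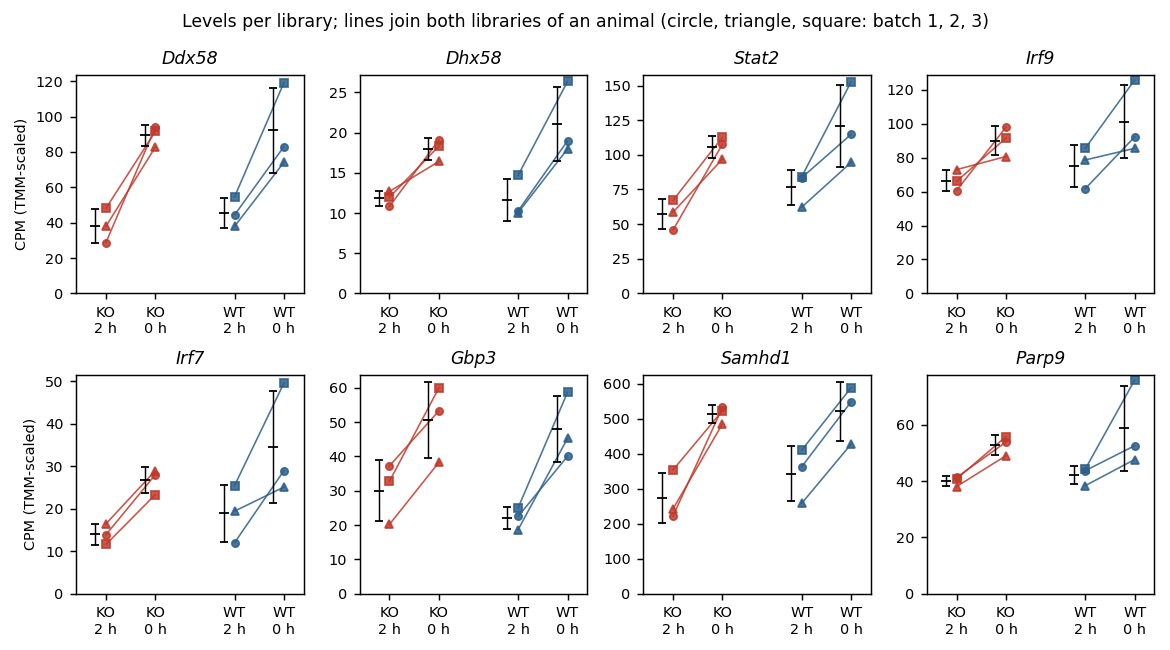
TMM-scaled CPM of 8 genes in each library (vertical axis from 0), with KO left and WT right, and 2 h left of 0 h within each. Lines join the libraries of an animal, marker shapes give the batch, and bars give mean ± SD of 3 libraries. In every panel shown the lines rise to the right, so that each of the 6 animals was lower at 2 h.

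Samhd1, whose enzyme depletes the nucleotides that viruses need and which is the most abundant of the 40, had 222, 242 and 354 CPM in KO 2 h libraries, against 533, 486 and 523 CPM in KO 0 h libraries. In WT cells it had 363, 258 and 410 CPM at 2 h, against 549, 428 and 589 CPM at 0 h. No library at 2 h reached the lowest at 0 h. Samhd1 fell by 0.91 ± 0.21 in KO (adjusted p = 0.00894, edgeR) in all 23 alternatives. In WT it differed by -0.60 ± 0.21 (adjusted p = 0.0685, edgeR), and the call was made there in 8 of 23 alternatives, the batch block among them (-0.61, adjusted p = 0.0172, edgeR).

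Gbp3, a guanylate-binding protein gene at chr3:142560026-142573209 (plus strand, GRCm38), had 37.2, 20.2 and 32.8 CPM in KO 2 h libraries, against 53.3, 38.3 and 59.96 CPM in KO 0 h libraries. It had 22.5, 18.6 and 25.0 CPM in WT 2 h libraries, against 40.02, 45.2 and 58.6 CPM in WT 0 h libraries. Groups were apart in both genotypes. Gbp3 fell by 0.77 ± 0.24 in KO (adjusted p = 0.0337, edgeR; 19 of 23 alternatives) and by 1.12 ± 0.24 in WT (adjusted p = 0.00727, edgeR; all 23).

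Parp9, a macrodomain protein that works with the ubiquitin ligase DTX3L, had 41.3, 38.1 and 40.7 CPM in KO 2 h libraries, against 53.9, 49.0 and 55.8 CPM in KO 0 h libraries. It had 43.7, 38.4 and 44.2 CPM in WT 2 h libraries, against 52.6, 47.7 and 75.9 CPM in WT 0 h libraries. Groups did not overlap, yet the differences were small. Parp9 fell by 0.48 ± 0.16 in WT, at the edge of the threshold (adjusted p = 0.0498, edgeR; 10 of 23 alternatives), and differed by -0.40 ± 0.16 in KO (adjusted p = 0.0784, edgeR), where 4 of 23 alternatives called it, the batch block among them (-0.41, adjusted p = 0.0336, edgeR). Parp9 and Dtx3l share 458 exonic bases on opposite strands, so part of their reads cannot be told apart, and Dtx3l itself differed by -0.27 ± 0.20 in KO and -0.31 ± 0.20 in WT, neither called.

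The OAS, IFIT, MX and viperin genes and the genes of the ISG15 system were not called in either genotype in the fit without a block. With the batch as a block Ifit2, an RNA-binding effector, was called lower in WT (-1.17, adjusted p = 0.0465, edgeR), against -1.33 ± 0.52 without the block (adjusted p = 0.0974, edgeR), and DESeq2 called it as well. Without WT 0 h replicate 3 it was at -0.51 (adjusted p = 0.541, edgeR). The 5 OAS genes, whose enzymes make the 2-5A messenger that activates RNase L or are related to them, had a median difference of 0.41 in KO (-0.25 to 0.47) and -0.14 in WT (-0.24 to 0.53). Without KO 2 h replicate 1 their KO median turned to -0.45 (-0.67 to 0.16), and without WT 0 h replicate 3 their WT median turned to 0.35 (-0.10 to 1.14). The 6 IFIT, MX and viperin genes, which bind foreign RNA, trap viral cores or alter membranes and nucleotides, had a median of -0.06 in KO (-1.22 to 0.38) and -0.81 in WT (-1.42 to -0.36). Without WT 0 h replicate 3 the WT median of these 6 turned to 0.27 (-0.51 to 0.91). In the ISG15 system, Isg15 itself, a ubiquitin-like modifier, had a difference of 0.95 ± 0.52 in KO, against 0.29 without KO 2 h replicate 1, and of 0.13 ± 0.52 in WT, while its protease gene Usp18 had -0.23 ± 0.32 in KO and -0.66 ± 0.32 in WT, and the ligase gene Herc6 had -0.63 ± 0.36 in KO and -0.69 ± 0.35 in WT. The SE of the low genes was large, at 0.75 for Ifit1 in KO against 0.22 for Ddx58.

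**Figure D3:**
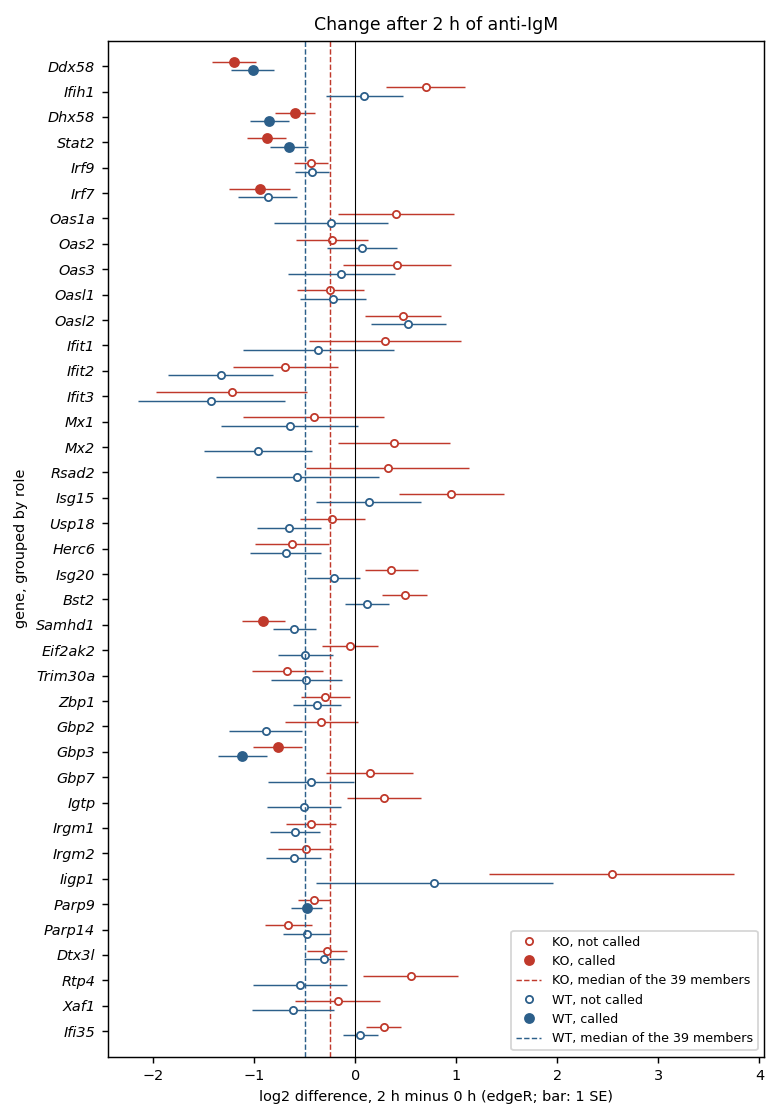
Log2 difference, 2 h minus 0 h, of the 39 tested genes by role, with KO above WT within each gene, bars of 1 SE and filled points for genes called by edgeR. The dashed lines are the medians of the 39, -0.25 in KO and -0.50 in WT, and every filled point lies left of 0.

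WT 0 h replicate 3 had more RNA of nearly the whole list than the other resting libraries. It was the highest of the 6 libraries at 0 h for 34 of 39 genes (87.2%), against 17.2% of all tested genes. Its median excess over the mean of the other 5 was 0.67 on the log2 scale, against 0.01 for all tested genes, and 38 of 39 were above that mean. More than 2-fold above it were 11 of 39 genes, against 1.14% of all. KO 0 h replicate 3, from the same batch, had a median of 0.97 for the IFIT, MX and viperin genes and of 0.03 for the RNA sensors on the same scale.

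The excess was largest for the GTPase gene Mx1, which had 13.9 CPM there, against 2.05 to 6.54 CPM in the other resting libraries. Mx2 had 6.53 CPM, against 1.20 to 2.06 CPM, and Ifit3, an RNA-binding effector, had 11.7 CPM, against 1.74 to 6.20 CPM. Rsad2, the gene of viperin, had 11.05 CPM, against 1.21 to 9.20 CPM, Rtp4 had 13.6 CPM, against 3.41 to 5.27 CPM, and the pro-apoptotic Xaf1 had 15.0 CPM, against 3.85 to 6.43 CPM. The median excess was 1.95 for the 6 IFIT, MX and viperin genes, 0.89 for the OAS genes, 0.54 for the RNA sensors, 0.54 for Stat2, Irf9 and Irf7 and 0.49 for the 7 guanylate-binding and IRG GTPases. Iigp1 was the exception, at 0.915 CPM, against 0.476 to 3.74 CPM.

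WT 2 h replicate 3, from the same animal, was the highest of the 6 libraries at 2 h for 13 of 39 genes (33.3%), against 12.9% of all tested genes. Its median excess was 0.10 for the IFIT, MX and viperin genes and 0.43 for Stat2, Irf9 and Irf7. The 7 macrophage and monocyte markers summed to 46.7 CPM in WT 0 h replicate 3. Their range was 29.1 to 58.2 CPM in KO 2 h and 27.1 to 42.7 CPM in KO 0 h libraries. It was 22.6 to 40.3 CPM in WT 2 h and 21.1 to 46.7 CPM in WT 0 h libraries. C1qa and C1qb were at or near 0. Csf1r had 9.398 CPM in WT 0 h replicate 3 and 7.403 CPM in KO 0 h replicate 3, against 0.953 to 3.499 CPM in the other resting libraries. Among resting libraries Itgam was also highest in this pair, with less separation. Lyz2 and Ly6c2 were highest in WT 0 h replicate 2, and Cd68 in KO 0 h replicate 1. Siglech was at 0.427 CPM in WT 0 h replicate 3. The 6 plasmacytoid dendritic cell markers summed to 266 CPM there, against 213 to 270 CPM in the other resting libraries. The part of other cells in the excess was not tested.

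The effect of this library on the WT response was large for the effectors. Without it the difference of Mx1 turned to 0.91, against -0.65 with it, and that of Mx2 to 0.04, against -0.96 with it. Oasl2, an OAS-like gene, had 12.8, 9.71 and 9.97 CPM in WT 2 h libraries, against 5.003, 4.83 and 12.5 CPM in WT 0 h libraries. Oasl2 was called higher without it (1.14, adjusted p = 0.0390, edgeR) and not with it (0.53 ± 0.37, adjusted p = 0.380, edgeR). Ddx58 (-0.78, adjusted p = 0.0324, edgeR) and Gbp3 (-0.95, adjusted p = 0.0364, edgeR) were the 2 genes of the list still called lower in WT without it, where 5.52% of all tested genes were called lower.

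KO 2 h replicate 1 was high for a partly different set, in which several GTPase genes and some effectors stood out. Iigp1, an IRG GTPase of microbial vacuoles, had 19.0 CPM there, against 0.157 to 4.39 CPM in the other 2 h libraries, a range in which its lowest value is below the floor of 3 counts for that library. Gbp7 had 46.7 CPM, against 12.01 to 16.8 CPM, Igtp had 43.7 CPM, against 13.8 to 16.4 CPM, and Gbp2 had 21.3 CPM, against 6.28 to 10.7 CPM. The median excess of the 7 GTPase genes over the mean of the other 5 libraries was 1.39 on the log2 scale, against -0.07 for all tested genes. Their excess ran from 0.29 for Irgm1 to 3.29 for Iigp1, with Gbp3 at 0.67 and Irgm2 at 0.75. Over all 39 genes the median was 0.36, and 8 of 39 were more than 2-fold above, against 13.8% of all, since this library stood apart for many genes.

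Some effectors were high in the same library. Ifit1 was high in both libraries that stood apart, with an excess of 1.54 here and of 1.32 in WT 0 h replicate 3. Isg15 had 10.8 CPM, against 2.00 to 4.37 CPM in the other 2 h libraries, Oas1a had 8.80 CPM, against 1.42 to 3.06 CPM, and Oas3 had 12.9 CPM, against 2.48 to 5.26 CPM. Ifit3 was the opposite, at 0.677 CPM, below the floor of 3 counts, against 0.799 to 2.98 CPM. The Rn45s share, Mki67 and the neutrophil markers of this library are given above, and their part in these levels was not tested.

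Without KO 2 h replicate 1, the GTPases of KO cells read lower. The KO difference of Gbp2 was then -0.92 (adjusted p = 0.0155, edgeR), against -0.34 ± 0.36 with it, and that of Irgm2 was -0.80 (adjusted p = 0.0273, edgeR), against -0.49 ± 0.28 with it. Igtp turned to -0.36 without it (adjusted p = 0.239, edgeR), against 0.29 ± 0.37 with it. The difference of Iigp1 was 0.70 without it and 2.54 ± 1.21 with it, and was called in neither case (adjusted p = 0.692 and 0.142, edgeR). The exons of Igtp and Irgm2 share 162 bases, and those of Gbp7 share 637 bases with a processed pseudogene, so their counts are uncertain to that extent. Without both libraries that stood apart, 13 of 39 genes were called lower in KO (13.4% of all tested genes), all of the 6 named before among them, and 4 of 39 in WT (10.1% of all), namely Ddx58, Dhx58, Gbp2 and Gbp3.

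**Figure D4:**
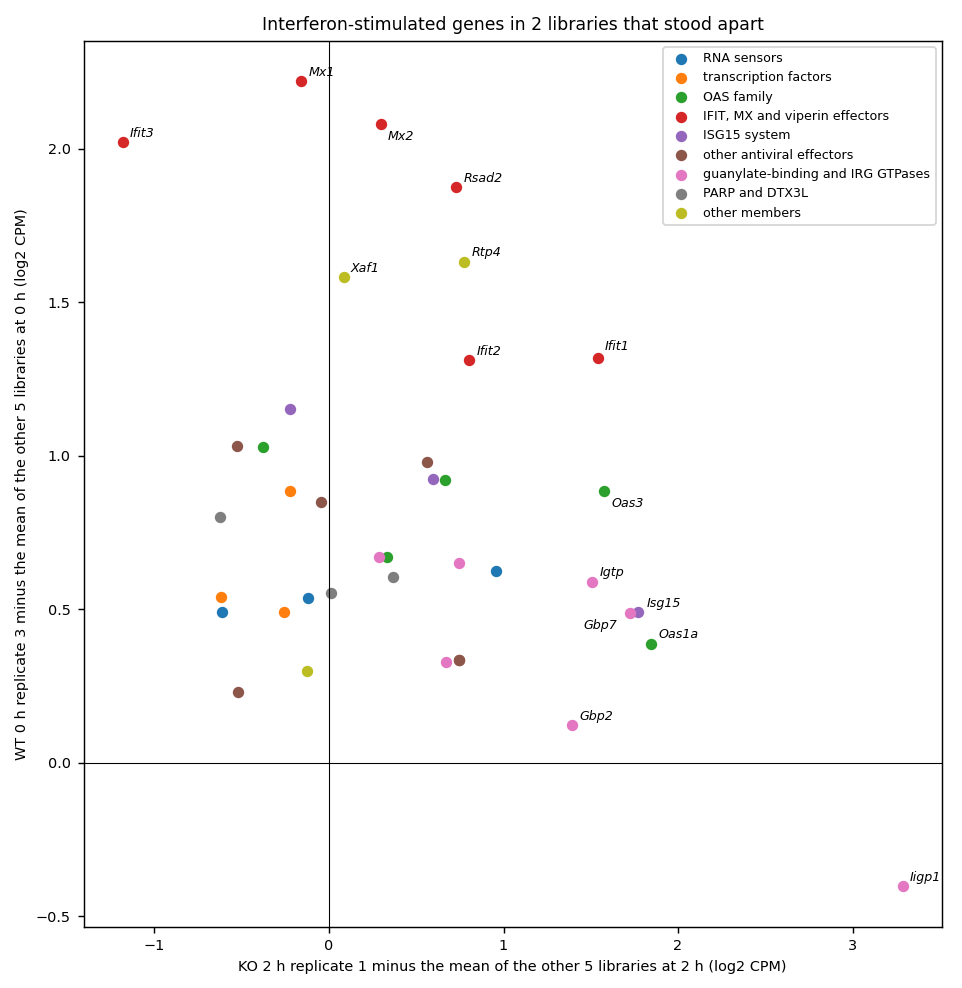
Each point is 1 of the 39 tested genes, coloured by role. The horizontal axis gives its log2 CPM in KO 2 h replicate 1 minus the mean of the other 5 libraries at 2 h, and the vertical axis its log2 CPM in WT 0 h replicate 3 minus the mean of the other 5 at 0 h. The IFIT, MX and viperin genes lie high on the vertical axis (median 1.95), and Iigp1 alone lies below 0 on it. On the horizontal axis the GTPases spread from 0.29 to 3.29 (median 1.39) and the OAS genes from -0.38 to 1.85 (median 0.67).

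KO against WT gave no called gene at either time. In cells at 2 h, edgeR's quasi-likelihood test called 0 of 12242 genes, with 640 at an unadjusted p under 0.05, of which 1 was on the list (Isg20). In cells at 0 h it called 0, with 91 at an unadjusted p under 0.05 and again 1 on the list (Mx2). DESeq2 called 2 genes at 2 h and 1 gene at 0 h, none of them on the list. The percentage called was 0 in both directions at both times for all tested genes, and so was that of the list.

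At 2 h the median was 0.02, against 0.01 for all tested genes, and 19 of 39 were negative, against 49.1% of all. Without KO 2 h replicate 1 it turned to -0.12, with 28 of 39 negative. By batch the medians were 0.31, -0.11 and -0.21, the first being the batch of KO 2 h replicate 1. Isg20, an exonuclease that degrades viral RNA, had 8.46, 6.28 and 6.62 CPM in KO 2 h libraries, against 3.596, 3.88 and 5.18 CPM in WT 2 h libraries. Every KO library was above every WT library, with a difference of 0.73 ± 0.27 (adjusted p = 0.887, edgeR). Non-overlapping groups with KO above were found for 1 of the 39 genes and for 4.62% of all tested genes, and with KO below for 1 of the 39, Parp14, and for 3.6% of all.

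Stat2 at 2 h had 45.7, 58.6 and 67.1 CPM in KO libraries, against 83.4, 62.2 and 84.1 CPM in WT libraries (-0.41 ± 0.19, adjusted p = 0.887, edgeR). It was lower in KO in each batch, though KO replicate 3 was above WT replicate 2. Isg15 had 10.8, 4.35 and 3.10 CPM in KO 2 h libraries, against 2.00, 4.37 and 2.20 CPM in WT 2 h libraries (1.05 ± 0.53, adjusted p = 0.887, edgeR), a difference carried by KO 2 h replicate 1.

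At 0 h the median of the 39 was -0.17 in KO against WT, against -0.00 for all tested genes, and 32 of 39 were negative, against 50.7% of all. By batch the medians were 0.06, -0.00 and -0.45, with 13, 20 and 36 of 39 negative in batches 1, 2 and 3, so the lower values came from the batch of WT 0 h replicate 3. Without that library the median turned to 0.08, with 10 of 39 negative. The 3 genes with the smallest p were Mx2, Xaf1 and Usp18. Mx2 had 1.21, 1.47 and 1.20 CPM in KO 0 h libraries, against 2.06, 1.21 and 6.53 CPM in WT 0 h libraries, a difference of -1.35 ± 0.54 (adjusted p = 0.9999, edgeR). Xaf1 had 5.15, 3.85 and 5.20 CPM in KO 0 h libraries, against 6.43, 4.22 and 15.0 CPM in WT 0 h libraries (-0.86 ± 0.41, adjusted p = 0.9999, edgeR). Usp18 had 5.61, 5.09 and 7.603 CPM in KO 0 h libraries, against 5.64, 7.24 and 13.9 CPM in WT 0 h libraries (-0.55 ± 0.31, adjusted p = 0.9999, edgeR). In each of the 3 genes WT 0 h replicate 3 was the highest and the groups overlapped. At 0 h the groups were apart for 0 of the 39 genes in either direction, beside 2.95% of all tested genes with KO above and 2.9% with KO below.

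Within batches, 10 of the 39 were lower in KO at 2 h in all 3 (16.6% of all tested genes were) and 5 were higher in all 3 (16.5% of all). The 5 were Ifih1, Rsad2, Isg20, Gbp3 and Irgm1. At 0 h, 8 were lower in all 3 batches (14.8% of all) and 0 were higher (14.5% of all). The 8 were Ifit3, Rsad2, Usp18, Bst2, Rtp4, Xaf1, Ifi35 and Eif2ak2, the gene of the double-stranded RNA kinase PKR. Ifit3 and Usp18 were lower in KO in all 3 batches at both times, 2 of 39 beside 4.58% of all tested genes, and 0 of 39 were higher in all, beside 4.15%. Some of these differences were close to none: Usp18 was at -0.008 in batch 1 at 0 h and at -0.024 in batch 3 at 2 h. Ifit3 had as few as 2 counts, in KO 2 h replicate 1.

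The KO response minus the WT response was called for 0 of 12242 genes by edgeR, with 40 at an unadjusted p under 0.05 and 0 of these on the list, and DESeq2 also called 0 of all genes. The median of the 39 was 0.25, against 0.01 for all tested genes. It turned to -0.18 with 23 of 39 negative without WT 0 h replicate 3, and to -0.28 with 30 of 39 negative without both libraries that stood apart. The smallest p values were those of Mx2 (1.34 ± 0.77), Rtp4 (1.09 ± 0.66) and Igtp (0.79 ± 0.51), each with an adjusted p of 0.9999 in edgeR. Rtp4, a receptor transporter protein gene, had 8.80, 6.16 and 4.46 CPM in KO 2 h libraries and 3.41, 4.30 and 5.27 CPM in KO 0 h libraries. It had 3.46, 6.15 and 5.65 CPM in WT 2 h libraries and 3.97, 4.58 and 13.6 CPM in WT 0 h libraries. Its KO ranges overlapped and so did its WT ranges, with single high libraries in KO at 2 h and in WT at 0 h. Igtp, an IRG GTPase gene, had 43.7, 16.4 and 13.8 CPM in KO 2 h libraries and 22.7, 15.8 and 19.4 CPM in KO 0 h libraries. It had 16.2, 14.4 and 15.4 CPM in WT 2 h libraries and 18.6, 18.2 and 28.4 CPM in WT 0 h libraries. All 3 rested on the libraries that stood apart: without both, the differences were 0.23 for Mx2, 0.03 for Rtp4 and -0.10 for Igtp.

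The genes upstream of the list were measured in the same libraries and tested in the same edgeR fit, and these pathway lists were also drawn up with earlier results of the data known. Of the interferon genes themselves, 6 were looked at, with no Ifna gene among them. All but Ifng were at or near the floor. Ifnb1 had 0 to 3 counts per library, Ifnk had 0 to 6, and Ifne, Ifnl2 and Ifnl3 had 0 in all 12. Ifng, the gene of interferon gamma, had 8 to 32 counts, or 1.98 to 2.71 CPM in KO 2 h, 1.07 to 2.15 CPM in KO 0 h, 1.46 to 2.04 CPM in WT 2 h and 1.04 to 1.57 CPM in WT 0 h libraries, and was not called in any comparison.

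The shares of all tested genes to set beside the pathway counts that follow are 13% lower and 14.1% higher in KO, and 9.06% lower and 10.7% higher in WT. Of 9 receptor and kinase genes, 4 fell in KO and 2 in WT, and 0 rose. Ifngr2, a chain of the interferon gamma receptor, averaged 81.9 CPM in KO 2 h and 193 CPM in KO 0 h libraries, and 85.7 CPM in WT 2 h and 185 CPM in WT 0 h libraries. It fell by 1.23 ± 0.17 in KO and by 1.10 ± 0.16 in WT. Ifngr1 fell in both genotypes, and Jak1 (-0.85 ± 0.23) and Jak2 (-0.55 ± 0.14) fell in KO. Both chains of the type I receptor, Ifnar1 and Ifnar2, were not called in either genotype.

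Among interferon-related factors outside the list, Irf2bp2, Irf4 and Irf8 rose in both genotypes and Irf2 fell in both. Irf4, the factor of B cell activation, averaged 1639 CPM in KO 2 h and 384 CPM in KO 0 h libraries, and 1905 CPM in WT 2 h and 360 CPM in WT 0 h libraries, a rise of 2.09 ± 0.31 in KO and of 2.40 ± 0.31 in WT. Irf8, which works with ETS factors at the composite element, rose by 1.15 ± 0.27 in KO and by 1.33 ± 0.27 in WT. Irf1 fell by 0.45 ± 0.15 in KO and differed by -0.40 ± 0.15 in WT.

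Among 6 feedback inhibitors, the phosphatase gene Ptpn2 rose in both genotypes (0.52 ± 0.11 in KO and 0.42 ± 0.11 in WT), Ptpn6 rose in WT, Pias1 fell in KO, and Socs1, the JAK inhibitor, was not called in either. Among 14 genes of nucleic acid sensing, 1 rose and 3 fell in both genotypes. Mb21d1, the gene of the DNA sensor cGAS, rose by 1.07 ± 0.24 in KO and by 1.002 ± 0.24 in WT, while its partner Tmem173, the gene of STING, fell by 1.34 ± 0.24 in KO and by 1.32 ± 0.24 in WT. Trim25, a ubiquitin ligase of the RIG-I pathway, fell by 1.39 ± 0.21 in KO and by 1.08 ± 0.21 in WT, and the DNA exonuclease gene Trex1 was the other that fell.

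A wider list of 74 further interferon-stimulated genes, 67 of them tested, had a median difference of -0.48 in KO and of -0.49 in WT. In KO 4 rose and 20 fell, and in WT 2 rose and 13 fell, beside 13% and 9.06% of all tested genes called lower. Among those that fell in both were the peptide transporter gene Tap1 (-0.74 ± 0.12 in KO and -0.79 ± 0.12 in WT), the Schlafen genes Slfn1, Slfn2 and Slfn8, the surface protein genes Ly6a and Ly6e, and the RNA helicase gene Mov10. Cd274, the gene of PD-L1, rose by 1.09 ± 0.25 in KO and by 1.43 ± 0.26 in WT, and Sp110 by 0.88 ± 0.14 in KO and by 0.98 ± 0.14 in WT. None of the pathway genes was called for KO against WT at either time or for the KO response minus the WT response.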

How the data were processed

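Poly(A) RNA of sorted splenic follicular B cells was sequenced in 12 libraries. Whole-number counts by gene symbol, not normalized, were deposited in 1 file per library. Alignment was with STAR to mm10, per the submitters' processing notes. The sources used here give neither the counting tool nor its annotation, strand setting or treatment of reads with several matches.

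The 40 genes and the pathway and marker lists were chosen with earlier results of these data known, so the counts over them describe and do not test. Every gene was fitted together: filterByExpr kept 12242 genes, TMM factors (0.522 to 1.20) scaled the libraries, and edgeR 4.0.16 under R 4.3.3 fitted a quasi-likelihood model with 1 mean per group to all 12 libraries, giving 5 contrasts. P values were two-sided and adjusted with the Benjamini-Hochberg method over all tested genes, and 0.05 was the threshold. The SE came from the F statistic. CPM was computed here from the deposited counts, and log2 CPM of single libraries used a prior count of 2. Exon lengths came from GENCODE M21 and promoter windows from RefSeq, both on the assembly behind mm10. Named genes were the genes on the list, with library values for those called in any comparison, for the 3 smallest p in comparisons with fewer than 3 called, and for Irf9, Stat2 and Irf7; values by library of other genes, such as Mx1 and Gbp7, were added after their values were seen.

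The numbers pair the libraries: the labels give a batch number, shared by genotypes and times, and the 2 libraries whose names share an ID number, read as 1 animal, carry it. Deviations from the group means were correlated across genes. For 18 pairs with the same number the correlation was -0.40 to 0.86, and for 36 pairs with other numbers -0.76 to 0.62. Among the 18, the 6 pairs read as 1 animal were at -0.40 to 0.59. The pair at 0.86 was KO 2 h replicate 3 and WT 2 h replicate 3. No libraries of a group agreed within sampling noise. The script for the fit was tested on simulated counts. Some genes of the pathway and marker lists are not reported here.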

Additional observations from a re-analysis of the deposited data

Results flagged for a closer look

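Rsad2, the gene of viperin, was higher in KO than in WT in all 3 batches at 2 h, with a mean difference of 0.69 on the log2 scale, and lower in KO in all 3 batches at 0 h, with a mean difference of -0.35. It had 6.43, 7.01 and 3.34 CPM in KO 2 h libraries, against 2.00, 6.80 and 2.43 CPM in WT 2 h libraries, and 1.21, 2.72 and 9.20 CPM in KO 0 h libraries, against 1.67, 3.62 and 11.05 CPM in WT 0 h libraries. The differences at 2 h were 1.60, 0.04 and 0.43 in batches 1, 2 and 3, the first being the batch of KO 2 h replicate 1. Of all tested genes, 16.5% were higher in KO in all 3 batches at 2 h and 14.8% were lower in all 3 at 0 h. The share with both was not counted. In edgeR's quasi-likelihood test the KO response minus the WT response was 0.90 ± 1.14 (adjusted p = 0.9999), which was not called.

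Isg20, an exonuclease gene, was higher at 2 h in all 3 KO animals, with a mean difference of 0.35, and lower at 2 h in all 3 WT animals, with a mean difference of -0.20. It had 8.46, 6.28 and 6.62 CPM in KO 2 h libraries, against 5.98, 5.55 and 5.002 CPM in KO 0 h libraries, and 3.596, 3.88 and 5.18 CPM in WT 2 h libraries, against 3.97, 4.46 and 6.29 CPM in WT 0 h libraries. Of all tested genes, 25.9% were higher at 2 h in all 3 KO animals and 31.6% were lower in all 3 WT animals, and the share with both was not counted. The difference between responses was 0.57 ± 0.37 in edgeR (adjusted p = 0.9999), which was not called.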

How the results depend on the processing

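The calls of Ddx58 in both genotypes, of Stat2 and Samhd1 in KO and of Gbp3 in WT held in all 23 alternatives, and no called gene changed direction in any. Genes of the list called lower in KO numbered 6 of 39 (13% of all tested genes). In DESeq2 with the batch as a replicate block they numbered 10 (18.2% of all). Without KO 2 h replicate 1 and WT 0 h replicate 3 they numbered 13 (13.4% of all). With 1 library left out they numbered 3 to 9 (8.51% to 14.9% of all). In WT they numbered 5 (9.06% of all), against 8 in DESeq2 (11.7% of all). With the batch as a replicate block they numbered 9 (12.1% of all), and 10 in DESeq2 with that block (14.2% of all). With 1 library left out they numbered 2 to 8 (4.37% to 13.8% of all). In WT the most were found without KO 2 h replicate 1 (13.8% of all). The fewest were found without WT 2 h replicate 2 (4.37% of all) or without WT 0 h replicate 3 (5.52% of all). Oasl2 was called higher in WT without WT 0 h replicate 3, and also without KO 2 h replicate 1 and WT 0 h replicate 3 together. That makes 1 gene called higher, against 0 otherwise (range 0 to 1 with 1 library left out). With the animal as a block, 8 were lower in KO (13.7% of all) and 7 in WT (9.41% of all). All tested genes called numbered 3316 in KO, against 1735 when only KO libraries were fitted and 2251 to 3849 with 1 library left out, and 2419 in WT, against 1278 to 3617.

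For KO against WT, DESeq2 called 2 genes at 2 h (17 with the batch as a replicate block) and 1 at 0 h (4 with the block), none on the list. The KO minus WT response of Igtp, 0.79, turned to -0.10 without the 2 libraries that stood apart and was 0.14 to 1.09 with 1 library left out. The cause of these changes was not tested, beyond the libraries named. DESeq2 with the block and the joint removal of 2 libraries were chosen after seeing the data. At 1 to 9 counts per library, Ifi44 was too low to be tested.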
